A study of Homo sapiens with 36 samples.

Results

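MDM2, CDKN1A, GADD45A, PPM1D, BTG2, RRM2B, ZMAT3 and SESN1 are target genes of the transcription factor p53 that act in cell cycle arrest, repair and feedback. They were taken by symbol as a fixed list of 8 genes, and all 8 were present in both deposited tables, out of 13534 genes listed in either table. The study used 2 human melanoma lines, 501mel and IGR37, in which SCD (stearoyl-CoA desaturase, the enzyme that makes monounsaturated from saturated fatty acids) was inhibited or its mRNA lowered, and 3' transcript tags were sequenced. Each line had 6 groups of 3 libraries, harvested at 48 h. SCDi cells received the SCD inhibitor labelled A939372 at 1 uM, against DMSO. Cells of the siSCD_2 group received the second SCD siRNA at 20 nM, against siCTR. Those of the siSCD_1 group received the first SCD siRNA at 20 nM, against the separate control group siCTR_1. All groups were grown in RPMI-1640 with 10% serum, and the labels name no engineered allele or transgene in either line. Each group is 1 established line, so the lines are 2 models and not a sample of melanomas, and nothing in the labels states that replicates came from separate cultures. The p-values therefore measure the spread between these libraries, which may be technical. The question asked of each gene was whether it changed when SCD was inhibited or depleted, and whether both lines and all agents gave the same change.

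p53 is held at a low level by MDM2, a ubiquitin ligase that marks it for degradation, and it accumulates when damage or other stress breaks that hold. It then switches on CDKN1A, whose product p21 blocks cyclin-dependent kinases, together with other genes that slow division, limit growth signals and supply repair. MDM2 and PPM1D are themselves p53 targets and switch the response off again. p53 is not the only factor that acts on these genes: GADD45A is also a target of the ATF4 stress response, and sestrin genes are also targets of FOXO factors. In melanocytic cells CDKN1A is known as a target of MITF, the lineage factor.

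The second start region of MDM2 is printed here because it is the textbook place where p53 acts on its own inhibitor, and MDM2 is the member that fell after siSCD_2. Promoters from the RefSeq table (build GRCh38.p14, 250 bases before to 50 after each start) matched 6 of the 8 genes, with 12 windows; GADD45A and RRM2B had no match. A p53 element, with both of its repeats side by side and at most 1 mismatch in each, lay in 2 of the 12 windows, both overlapping windows of the second MDM2 start region, and in 0.387% of 35116 promoter windows of the table. The AP-1 word TGACTCA, sought on both strands, lay in the same 2 windows and in 4.95% of all. The ATF4-type word TGATGNAA, also sought on both strands, lay in 0 of the 12 windows and in 3.62% of all. Elements of p53 farther from a start, or with a gap between the repeats, were not sought. Capitals mark the p53 element that met this limit, whose first base is at position -94 from the start. Stretches with more mismatches are not marked.
MDM2 chr12:68808767-68809066, plus strand: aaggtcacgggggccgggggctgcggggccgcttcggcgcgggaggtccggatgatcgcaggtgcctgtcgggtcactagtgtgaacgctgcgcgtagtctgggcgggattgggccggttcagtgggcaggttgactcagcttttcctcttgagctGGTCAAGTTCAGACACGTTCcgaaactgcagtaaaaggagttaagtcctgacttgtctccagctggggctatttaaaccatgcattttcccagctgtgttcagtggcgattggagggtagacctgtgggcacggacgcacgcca
A tag at the 3' end of a transcript does not say from which start it came, so the level of MDM2 below is the sum over its starts.

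Levels are given as log2 CPM, the log2 of tag counts scaled to library size with a prior count of 0.25, as deposited. Depth was 4078450 to 6685898 gene reads per library in the table of SCDi, siSCD_2 and their controls, and 2402788 to 7483010 in the table of siSCD_1 and siCTR_1. At 0 reads a level of up to 0.385 to 1.18 CPM is allowed, depending on the library, by counting error only. The 2 tables were normalised separately, so tests stay within a table. Changes are log2 fold changes ± SE from limma over all genes of the table, with 3 libraries per group, and p-values are Benjamini-Hochberg adjusted, two-sided, with a threshold of 0.05. SCD itself fell by 4.15 with siSCD_2 and fell by 2.67 with siSCD_1 in IGR37, and in 501mel it fell by 4.33 with siSCD_2 and fell by 2.85 with siSCD_1, with adjusted p of at most 1.03e-12. With SCDi its change was 0.63 ± 0.16 in IGR37 (adjusted p = 0.00215) and 0.29 ± 0.16 in 501mel (adjusted p = 0.573). All 7 melanocyte markers were measured, at a summed 3152 to 7356 CPM per library. Summed markers of other cell types were lower, at 4.23 to 88.6 CPM for blood and endothelium (3 of 6 measured), 1.64 to 18.7 CPM for fibroblasts (at most 3 of 6) and 0 to 5.45 CPM for epithelium (1 of 5).

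In IGR37 cells treated with SCDi, 3 of the 8 genes rose and 1 fell, where 44.1% of all genes passed the test (20.9% higher, 23.1% lower): GADD45A, CDKN1A and RRM2B were higher and ZMAT3 lower. After siSCD_2, 6 of 8 rose and 1 fell in IGR37 (45.9% of all genes passed, 23.2% higher and 22.7% lower), and the gene that fell was MDM2. In IGR37 with siSCD_1, 4 of 8 rose (36.1% of all genes passed, 16.7% higher and 19.4% lower), namely CDKN1A, GADD45A, BTG2 and RRM2B. In 501mel cells treated with SCDi no member with more than 4 reads per group passed, while CDKN1A passed on 0 against 4 reads, and 0.292% of all genes passed (0.232% higher, 0.0599% lower; 1311 genes had an unadjusted p under 0.05). In 501mel after siSCD_2, 5 of 8 rose and MDM2 fell, beside CDKN1A on 0 against 3 reads (37.9% of all genes passed, 18.3% higher and 19.5% lower). With siSCD_1 in 501mel, 4 of 8 rose (43% of all genes passed, 20.9% higher and 22% lower), and these were GADD45A, BTG2, RRM2B and MDM2. The median change of the 8 genes was 0.20 and -0.05 with SCDi in IGR37 and 501mel, 0.67 and 0.68 with siSCD_2, and 0.42 and 0.76 with siSCD_1, where the median of all genes was between -0.01 and 0.01. GADD45A passed in 5 of the 6 comparisons, and PPM1D in 1.

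**Figure D1:**
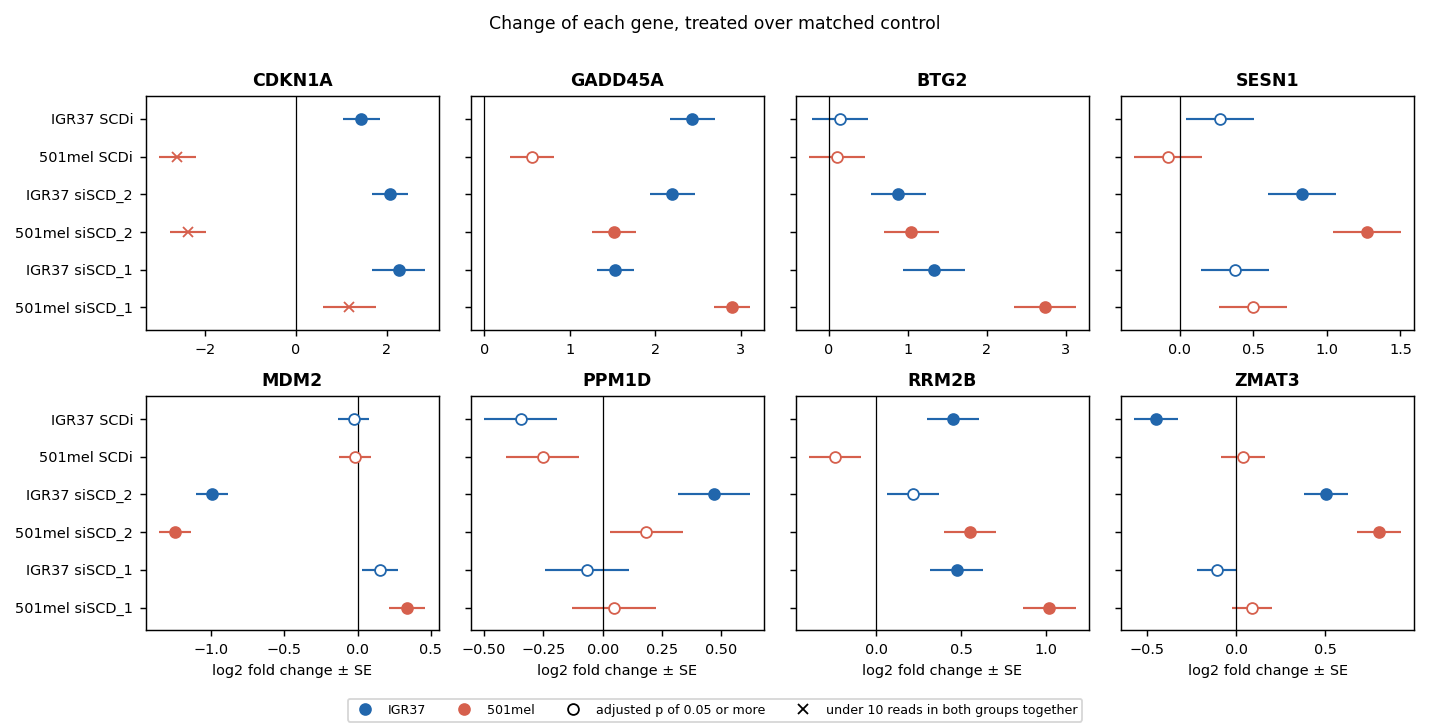
Log2 fold change ± SE (x axis, limma) of each of the 8 genes in the 6 comparisons of treated over matched control libraries (rows), IGR37 in blue and 501mel in red. Filled points passed an adjusted p of 0.05, open points did not, and crosses mark CDKN1A in 501mel, measured by under 10 reads. GADD45A lies to the right of 0 in every row, from 0.56 to 2.90, and MDM2 lies to the left of -0.9 in both siSCD_2 rows only.

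CDKN1A (ENSG00000124762.13, chromosome 6, 36676460 to 36687339, plus strand of hg38) encodes p21, the kinase inhibitor through which p53 stops the cycle. It was measured well in IGR37 and hardly at all in 501mel. Its log2 CPM in IGR37 was 5.17, 4.97 and 5.13 with SCDi, against 3.62, 3.49 and 3.84 with DMSO. With siSCD_2 it was 4.33, 3.92 and 3.84, against 1.26, 2.34 and 2.29 with siCTR. The siSCD_1 libraries were at 5.35, 5.82 and 5.63, against 3.28, 3.61 and 3.14 with siCTR_1. Every treated IGR37 library was above every library of its control group, in all 3 comparisons. The change was 1.44 ± 0.40 with SCDi (adjusted p = 0.00465), 2.07 ± 0.40 with siSCD_2 (adjusted p = 0.000139) and 2.26 ± 0.59 with siSCD_1 (adjusted p = 0.00666). In reads this was 509 against 201, 257 against 77 and 547 against 192 per group. The order of the IGR37 groups within the first table, SCDi, siSCD_2, DMSO, siCTR, had no overlap between neighbours, although siSCD_2 and DMSO touched at 3.84. With scaling to the spike-ins the SCDi call in IGR37 was narrowly lost, at 1.34 (adjusted p = 0.0514). Over all alternatives the adjusted p of that change ran from 4.43e-09 to 0.0514. These SEs pool all groups of a table, including 501mel groups with almost no reads. Group SDs in the first table were 0.11 to 0.61 in IGR37 and 0 to 0.42 in 501mel. In the second table they were 0.24 in both IGR37 groups, against 0.59 with siSCD_1 and 1.57 with siCTR_1 in 501mel.

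In 501mel the 3 libraries of each group held 0 CDKN1A reads with SCDi against 1, 2 and 1 with DMSO, and 0 with siSCD_2 against 1, 1 and 1 with siCTR. With siSCD_1 they held 1, 1 and 2 reads, against 0, 2 and 1 with siCTR_1. The fitted changes with SCDi and siSCD_2 passed the threshold on these reads, and no fold is given for them. The ratio of summed CPM of treated over control libraries had a 95% counting interval from 0 to 1.45 with SCDi, from 0 to 2.35 with siSCD_2 and from 0.333 to 13.4 with siSCD_1, so a difference was not detectable at this depth. With a pseudocount of 1 CPM neither call remained, at adjusted p = 0.671 with SCDi and 0.356 with siSCD_2.

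GADD45A (ENSG00000116717.12, chromosome 1, 67685061 to 67688338, plus strand of hg38) encodes a small stress protein that binds p21 and PCNA and acts in growth arrest and repair. It rose in 5 of the 6 comparisons, with fitted changes of 1.52 to 2.90. The IGR37 libraries had log2 CPM of 5.63, 5.63 and 5.23 with SCDi, against 2.93, 2.79 and 3.47 with DMSO. Values were 4.84, 4.13 and 4.90 with siSCD_2, against 2.78, 2.03 and 2.48 with siCTR. It stood at 4.82, 4.16 and 4.73 with siSCD_1, against 3.12, 2.87 and 3.12 with siCTR_1. No treated library overlapped its controls in these 3 comparisons, and SCDi gave the highest IGR37 levels of the first table. The changes were 2.43 ± 0.26 with SCDi (adjusted p = 2.98e-08), 2.20 ± 0.26 with siSCD_2 (adjusted p = 1.79e-07) and 1.53 ± 0.21 with siSCD_1 (adjusted p = 4.26e-05). The 501mel libraries had log2 CPM of 3.90, 3.80 and 4.30 with SCDi, against 3.46, 3.31 and 3.55 with DMSO. siSCD_2 gave 4.68, 5.37 and 5.74, against 4.15, 3.41 and 3.67 with siCTR. With siSCD_1 it was 5.74, 5.74 and 6.18, against 2.57, 3.08 and 3.31 with siCTR_1. The groups did not overlap here either, but the gap with SCDi was the smallest of the 6, between 3.80 and 3.55. That SCDi change, 0.56 ± 0.26, did not pass (adjusted p = 0.48), whereas siSCD_2 gave 1.52 ± 0.26 (adjusted p = 4.72e-05) and siSCD_1 2.90 ± 0.21 (adjusted p = 4.17e-08). No alternative that was run ended any of the 5 calls.

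BTG2 (ENSG00000159388.5, chromosome 1, 203305491 to 203309602, plus strand of hg38) encodes an antiproliferative protein that speeds the removal of poly(A) tails from mRNA. It was the lowest member beside CDKN1A in 501mel, with 23 to 138 reads per group. In IGR37 its log2 CPM was 0.58, 1.16 and 0.97 with SCDi, against 0.74, 1.02 and 0.54 with DMSO. The siSCD_2 libraries were at 1.31, 2.05 and 1.33, against 1.26, 0.42 and 0.37 with siCTR. Values were 1.42, 1.50 and 1.93 with siSCD_1, against 0.05, 0.24 and 0.56 with siCTR_1. The SCDi and DMSO libraries overlapped, while the siRNA libraries lay above their controls, most narrowly with siSCD_2, where the nearest values were 1.31 and 1.26. The gene rose by 1.33 ± 0.39 with siSCD_1 (adjusted p = 0.0142) and by 0.88 ± 0.35 with siSCD_2 (adjusted p = 0.0424), and its change with SCDi was 0.14 ± 0.35 (adjusted p = 0.785). In 501mel its log2 CPM was 0.71, 1.08 and 0.92 with SCDi, against 0.93, 1.09 and 0.38 with DMSO. It stood at 2.05, 2.37 and 2.20 with siSCD_2, against 1.45, 0.95 and 1.09 with siCTR. siSCD_1 gave 3.57, 3.75 and 3.82, against 1.71, 1.17 and 0.06 with siCTR_1. With siSCD_1 the 3 libraries stood above every other library of the table, at 138 reads against 35 with siCTR_1. The changes were 2.74 ± 0.39 with siSCD_1 (adjusted p = 3.69e-05), 1.04 ± 0.35 with siSCD_2 (adjusted p = 0.0206) and 0.10 ± 0.35 with SCDi (adjusted p = 0.979). The siSCD_2 calls are the weak ones: the IGR37 call was lost without siCTR replicate 2 or 3 or siSCD_2 replicate 2 or the unnumbered one (adjusted p up to 0.2), and the 501mel call without siCTR replicate 2 or 3 or siSCD_2 replicate 2 (adjusted p up to 0.0703). With spike-in scaling they became 0.37 (adjusted p = 0.544) and 0.42 (adjusted p = 0.48). The IGR37 siSCD_1 call was at adjusted p = 0.0501 with that scaling and also without siCTR_1 replicate 1, and at 0.0507 without siSCD_1 replicate 3. The IGR37 siSCD_2 call was lost as well in a fit of only its 2 groups (adjusted p = 0.124) and with the replicate block (0.105).

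SESN1 (ENSG00000080546.13, chromosome 6, 108986437 to 109094819, minus strand of hg38) encodes sestrin 1, a stress protein that restrains mTORC1 growth signalling. It rose with siSCD_2 in both lines and passed in no other comparison. Its log2 CPM in IGR37 was 3.40, 3.95 and 3.90 with siSCD_2, against 3.02, 2.67 and 3.07 with siCTR. With SCDi it was 2.65, 2.65 and 3.13, against 2.13, 2.79 and 2.70 with DMSO. The siSCD_1 libraries were at 2.26, 3.07 and 3.07, against 2.53, 2.47 and 2.27 with siCTR_1. Of these 3 comparisons siSCD_2 alone had libraries clear of their controls. The siSCD_2 change was 0.83 ± 0.23 (adjusted p = 0.00438), against 0.27 ± 0.23 with SCDi (adjusted p = 0.359) and 0.38 ± 0.23 with siSCD_1 (adjusted p = 0.226). Its log2 CPM in 501mel was 4.67, 4.68 and 4.89 with siSCD_2, against 3.85, 3.60 and 2.97 with siCTR. Values were 3.26, 3.38 and 3.59 with SCDi, against 3.64, 3.34 and 3.48 with DMSO. It stood at 4.05, 3.81 and 4.001 with siSCD_1, against 3.43, 3.55 and 3.38 with siCTR_1. The siSCD_2 libraries were again the highest group of the first table, with no overlap with any other group. The change was 1.27 ± 0.23 with siSCD_2 (adjusted p = 8.9e-05), -0.08 ± 0.23 with SCDi (adjusted p = 0.968) and 0.50 ± 0.23 with siSCD_1 (adjusted p = 0.0942). The last passed in a fit of only its 2 groups (adjusted p = 0.0254) and with voom (adjusted p = 0.0385). In 501mel the siSCD_1 libraries were clear of their controls too, with the nearest values at 3.81 and 3.55. The IGR37 siSCD_1 change passed without siSCD_1 replicate 1 (0.65, adjusted p = 0.0263). With spike-in scaling the siSCD_2 changes were 0.32 in IGR37 (adjusted p = 0.424) and 0.65 in 501mel (adjusted p = 0.0875).

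**Figure D2:**
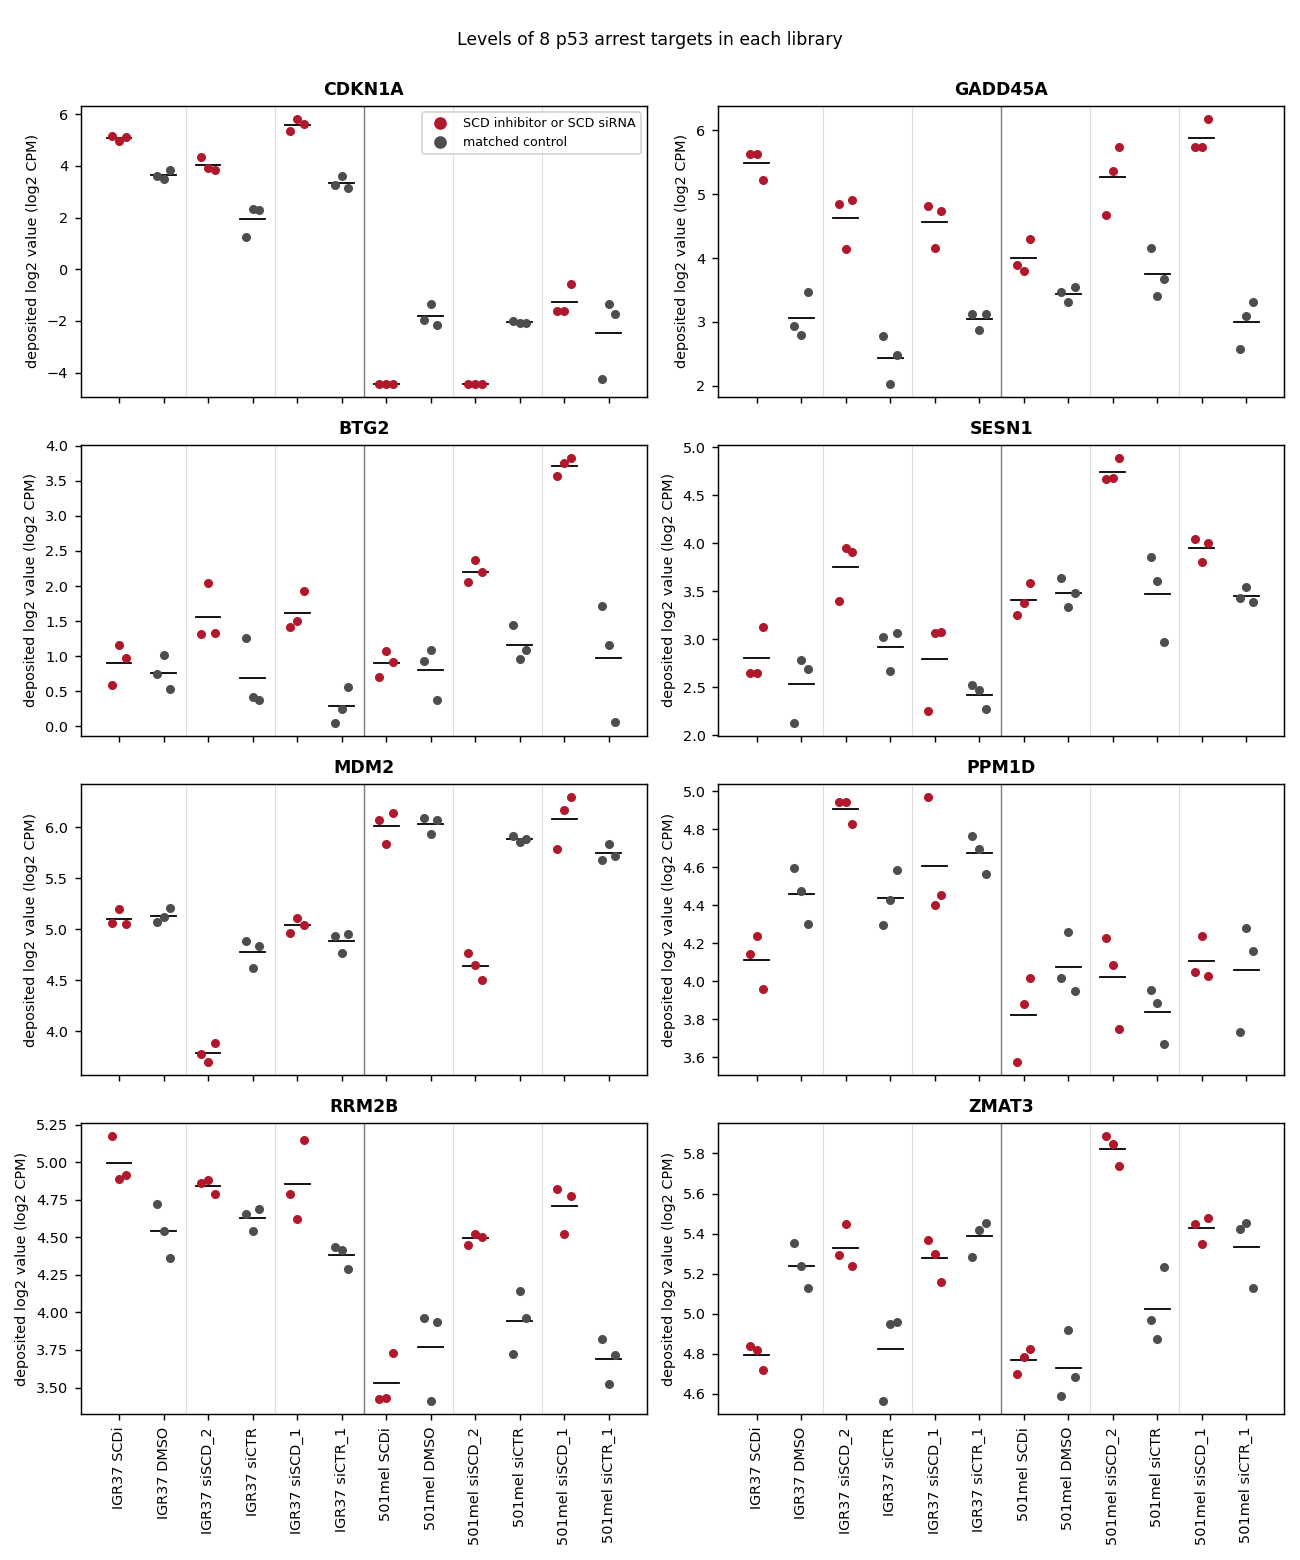
Deposited log2 CPM (y axis, a separate scale per gene) of the 8 genes in all 36 libraries, 3 per group, with treated libraries in red, matched controls in grey and a bar at the group mean. The CDKN1A values of -4.43 and -4.24 in 501mel are libraries with 0 reads. MDM2 with siSCD_2 lies between 3.70 and 4.76, below every other library of the same line and table.

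MDM2 (ENSG00000135679.23, chromosome 12, 68808176 to 68850686, plus strand of hg38) encodes the ligase that degrades p53 and is itself a p53 target. It fell with siSCD_2 in both lines, while GADD45A, SESN1, ZMAT3 and BTG2 rose there. The IGR37 libraries had log2 CPM of 3.78, 3.70 and 3.89 with siSCD_2, against 4.89, 4.62 and 4.84 with siCTR. SCDi gave 5.06, 5.20 and 5.05, against 5.07, 5.12 and 5.21 with DMSO. With siSCD_1 it was 4.96, 5.11 and 5.04, against 4.93, 4.77 and 4.96 with siCTR_1. The siSCD_2 libraries lay far below siCTR, the SCDi and DMSO libraries overlapped, and the siSCD_1 libraries touched their controls at 4.96. The change was -0.99 ± 0.11 with siSCD_2 (adjusted p = 3.92e-08), -0.03 ± 0.11 with SCDi (adjusted p = 0.868) and 0.15 ± 0.12 with siSCD_1 (adjusted p = 0.363). The 501mel libraries had log2 CPM of 4.76, 4.65 and 4.51 with siSCD_2, against 5.91, 5.86 and 5.88 with siCTR. The SCDi libraries were at 6.07, 5.83 and 6.14, against 6.09, 5.93 and 6.08 with DMSO. Values were 5.79, 6.17 and 6.30 with siSCD_1, against 5.68, 5.84 and 5.72 with siCTR_1. Here too siSCD_2 stood apart from every other 501mel group, and the siSCD_1 and siCTR_1 libraries overlapped. The change was -1.24 ± 0.11 with siSCD_2 (adjusted p = 1.17e-09), -0.02 ± 0.11 with SCDi (adjusted p = 0.987) and 0.34 ± 0.12 with siSCD_1 (adjusted p = 0.0361). The small siSCD_1 rise in 501mel was lost without siCTR_1 replicate 1 or 3 or siSCD_1 replicate 2 or 3 (adjusted p up to 0.171), with each library centred on its median (0.122) and with spike-ins (0.698). It was also lost without the variance trend (0.0619) and in a fit of only its 2 groups (0.0951). Both siSCD_2 falls passed under every alternative run, at -0.94 to -1.50 in IGR37 and -1.18 to -1.87 in 501mel.

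Because siSCD_2 and siSCD_1 both lowered SCD but MDM2 fell with siSCD_2, its 3' region was searched for 7-base words. Small interfering RNAs are known to lower other transcripts whose 3' regions match the seed of the guide; the guide sequences are not used here. Over 6368 genes of at least median level in the first table, with an annotated 3' region, each word held by at least 100 genes was ranked by the lower mean change of its holders, divided by the standard error of that difference. In 501mel with siSCD_2 the word TCTGATC ranked 1 of 14569. Its 587 holders (9.22%) averaged -0.18 and the other genes -0.01. It ranked 157 in IGR37 with siSCD_2, and between 4914 and 8248 in the other 4 comparisons. MDM2 holds the word once in a 3' region of 10837 bases, where 37.2% of 148 regions within 30% of that length hold it, and none of the other 7 genes holds it. SCD holds it 2 times, and no share among regions of like length was taken for SCD. Neither MDM2 nor SCD was left out of the ranking. The 3 places are printed as 30 bases each (hg38, plus strand), with the word in capitals.
MDM2 chr12:68841155-68841184: ctcttaaacctTCTGATCcttagtttctct
SCD chr10:100363625-100363654: tgtgccatggaTCTGATCtgtaccatgacc
SCD chr10:100363791-100363820: ataaactcagaTCTGATCaagagtccggat
The word was chosen after the values were seen, a match is not a site, and its part in the fall of MDM2 was not tested. For siSCD_1 the word GCTTCCT ranked 1 of 14497 in both lines and CTTCCTA ranked 2 in IGR37 and 118 in 501mel. None of the 8 genes holds either, where 18.8% and 13.7% of 6227 genes do.

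MDM2 also overlaps the gene CPM (carboxypeptidase M, not the unit) on the opposite strand, and use of strand in counting is not stated in the sources used here. This neighbour had 103 reads with siSCD_2 against 279 with siCTR in IGR37, a change of -1.29 ± 0.54 that did not pass (adjusted p = 0.0508). In 501mel it had 19 against 10 reads, and its change was 0.80 ± 0.54 (adjusted p = 0.257). MDM2 itself had 217 reads with siSCD_2 against 497 with siCTR in IGR37, and 396 against 910 in 501mel. In IGR37 the neighbour thus had fewer reads than MDM2 in both groups and moved the same way, and its part in the MDM2 counts there was not tested.

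PPM1D (ENSG00000170836.11, chromosome 17, 60600183 to 60666280, plus strand of hg38) encodes WIP1, the phosphatase that removes activating phosphates from p53 and its kinases. It was the steadiest of the 8 genes. In IGR37 its log2 CPM was 4.94, 4.94 and 4.83 with siSCD_2, against 4.30, 4.43 and 4.59 with siCTR. It stood at 4.14, 4.24 and 3.96 with SCDi, against 4.60, 4.48 and 4.30 with DMSO. siSCD_1 gave 4.97, 4.40 and 4.46, against 4.77, 4.70 and 4.57 with siCTR_1. The siSCD_2 libraries were all above siCTR and the SCDi libraries all below DMSO, while siSCD_1 and siCTR_1 overlapped. It rose by 0.47 ± 0.15 with siSCD_2 (adjusted p = 0.0145), relative to a median of all genes that itself moves under spike-in scaling, where the value was -0.04 (adjusted p = 0.917). The call was lost without siCTR replicate 1 (adjusted p = 0.0667). The SCDi change of -0.34 ± 0.15 did not pass (adjusted p = 0.0709), though it did with quantile normalisation (0.0298) or median centring (0.0367), and siSCD_1 gave -0.07 ± 0.18 (adjusted p = 0.807). In 501mel its log2 CPM was 3.58, 3.88 and 4.02 with SCDi, against 4.02, 4.26 and 3.95 with DMSO. With siSCD_2 it was 4.23, 4.08 and 3.75, against 3.95, 3.89 and 3.67 with siCTR. The siSCD_1 libraries were at 4.05, 4.24 and 4.03, against 3.73, 4.28 and 4.16 with siCTR_1. Treated and control libraries overlapped in all 3 comparisons, with changes of -0.25 ± 0.15 with SCDi (adjusted p = 0.624), 0.18 ± 0.15 with siSCD_2 (adjusted p = 0.376) and 0.05 ± 0.18 with siSCD_1 (adjusted p = 0.856).

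RRM2B (ENSG00000048392.11) encodes p53R2, the ribonucleotide reductase subunit that supplies deoxynucleotides for repair and for mitochondrial DNA outside S phase. It rose with both siRNAs in 501mel, and with SCDi and siSCD_1 in IGR37. Its log2 CPM in IGR37 was 5.17, 4.89 and 4.92 with SCDi, against 4.72, 4.54 and 4.36 with DMSO. Values were 4.86, 4.89 and 4.79 with siSCD_2, against 4.65, 4.54 and 4.69 with siCTR. It stood at 4.79, 4.63 and 5.15 with siSCD_1, against 4.44, 4.42 and 4.29 with siCTR_1. Treated libraries were above their controls in all 3 comparisons, by the least with siSCD_2. The changes were 0.45 ± 0.15 with SCDi (adjusted p = 0.0178), 0.22 ± 0.15 with siSCD_2 (adjusted p = 0.259) and 0.47 ± 0.16 with siSCD_1 (adjusted p = 0.0257). The SCDi call was lost without DMSO replicate 3 (adjusted p = 0.0937) or SCDi replicate 1 (0.0956), and the siSCD_1 call without siCTR_1 replicate 2 (0.0539) or 3 (0.0885) or siSCD_1 replicate 3 (0.129). A fit of only its 2 groups also ended the siSCD_1 call of RRM2B (0.0551). Its log2 CPM in 501mel was 3.42, 3.43 and 3.73 with SCDi, against 3.96, 3.41 and 3.93 with DMSO. siSCD_2 gave 4.45, 4.53 and 4.51, against 3.73, 4.14 and 3.96 with siCTR. With siSCD_1 it was 4.82, 4.52 and 4.77, against 3.83, 3.53 and 3.72 with siCTR_1. The SCDi libraries overlapped DMSO, and the siRNA libraries were clear of their controls. The changes were 1.02 ± 0.16 with siSCD_1 (adjusted p = 6.74e-05), 0.55 ± 0.15 with siSCD_2 (adjusted p = 0.00548) and -0.24 ± 0.15 with SCDi (adjusted p = 0.642). With spike-in scaling the siSCD_2 value in 501mel was -0.07 (adjusted p = 0.83), and the IGR37 values were 0.35 with SCDi (adjusted p = 0.309) and 0.24 with siSCD_1 (adjusted p = 0.407).

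ZMAT3 (ENSG00000172667.10, chromosome 3, 179017223 to 179072279, minus strand of hg38) encodes a zinc finger protein that binds RNA and regulates splicing and mRNA stability. It moved in opposite directions with the inhibitor and the second siRNA in IGR37. There its log2 CPM was 4.84, 4.82 and 4.72 with SCDi, against 5.35, 5.24 and 5.13 with DMSO. The siSCD_2 libraries were at 5.29, 5.45 and 5.24, against 4.57, 4.95 and 4.96 with siCTR. Values were 5.37, 5.30 and 5.16 with siSCD_1, against 5.29, 5.42 and 5.45 with siCTR_1. SCDi libraries were all below DMSO, siSCD_2 libraries were all above siCTR, and siSCD_1 and siCTR_1 overlapped. The gene fell by 0.45 ± 0.12 with SCDi (adjusted p = 0.00431) and rose by 0.50 ± 0.12 with siSCD_2 (adjusted p = 0.00151), and siSCD_1 gave -0.11 ± 0.11 (adjusted p = 0.481). The 501mel libraries had log2 CPM of 5.89, 5.85 and 5.74 with siSCD_2, against 4.97, 4.88 and 5.23 with siCTR. It stood at 4.70, 4.78 and 4.82 with SCDi, against 4.59, 4.92 and 4.68 with DMSO. siSCD_1 gave 5.45, 5.35 and 5.48, against 5.43, 5.46 and 5.13 with siCTR_1. With siSCD_2 it was higher in every library than in any other 501mel or IGR37 library of the table, a change of 0.80 ± 0.12 (adjusted p = 1.13e-05). The changes with SCDi (0.04 ± 0.12, adjusted p = 0.976) and siSCD_1 (0.09 ± 0.11, adjusted p = 0.55) did not pass. With spike-in scaling the siSCD_2 values were -0.0045 in IGR37 (adjusted p = 0.989) and 0.17 in 501mel (adjusted p = 0.543). The SCDi value in IGR37 was then -0.55 ± 0.22 (adjusted p = 0.0561), a larger fall with a wider spread that did not pass.

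The spike-in scaling moved all genes together, not these 8 alone. Relative to the deposited scale the median of all genes moved to -0.10 and 0.36 with SCDi in IGR37 and 501mel, to -0.51 and -0.63 with siSCD_2, and to -0.25 and -0.23 with siSCD_1. The changes above are relative to a median near 0. The spike-in mix itself differed between arms: in the first table ERCC-00130 was at 10.9 to 12.3 log2 CPM in treated libraries and at 13.3 to 13.9 in control libraries, and ERCC-00002 at 13.6 to 15.2 against 13.3 to 14.0. In the second table ERCC-00130 was at 11.5 to 11.8 in treated libraries, against 13.4 to 13.8. The scaling used the sum of all spike-in reads, which is thus not known to be a common reference for treated and control libraries. A call of treated against control that was lost or reversed with it cannot be told apart from this difference in the mix. The part of the mix in the scaled values was not tested.

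The lines were then compared, first by how far each effect differed between them (IGR37 minus 501mel). For the SCDi effect 4 of the 8 genes passed (27.6% of all genes did), namely CDKN1A, GADD45A, RRM2B and ZMAT3. GADD45A gave 1.87 ± 0.37 (adjusted p = 0.000397), from 2.43 ± 0.26 in IGR37 and 0.56 ± 0.26 in 501mel. For RRM2B the difference was 0.69 ± 0.22 (adjusted p = 0.0175) and for ZMAT3 -0.48 ± 0.17 (adjusted p = 0.0388). Both were lost without 501mel DMSO replicate 1 or 3 (adjusted p of 0.0525 to 0.104), and each without further single libraries. The ZMAT3 call was also lost with the replicate block (adjusted p = 0.0502), and with spike-in scaling the RRM2B difference was 0.23 (adjusted p = 0.683). For the siSCD_2 effect CDKN1A alone passed (21.1% of all genes did), where its 501mel side rests on 0 against 3 reads. For siSCD_1, GADD45A alone passed (20.3% of all genes did), with a larger rise in 501mel: -1.36 ± 0.30 (adjusted p = 0.00564). Without 501mel siCTR_1 replicate 1, 3 genes passed there, with BTG2 at -1.77 (adjusted p = 0.0397) and CDKN1A, and without IGR37 siSCD_1 replicate 3, RRM2B joined at -0.69 (adjusted p = 0.028). GADD45A thus had its larger change in IGR37 with the inhibitor and in 501mel with siSCD_1.

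The inhibitor and the second siRNA share a table, so their effects could be compared directly (SCDi effect minus siSCD_2 effect). In IGR37 3 genes passed (38.8% of all genes did): MDM2 at 0.97 ± 0.15 (adjusted p = 1.43e-05), ZMAT3 at -0.95 ± 0.17 (adjusted p = 9.63e-05) and PPM1D at -0.81 ± 0.22 (adjusted p = 0.00416). In 501mel 4 genes passed (21% of all genes did), MDM2 at 1.23 ± 0.15 (adjusted p = 1.5e-06), SESN1 at -1.35 ± 0.32 (adjusted p = 0.00354), ZMAT3 at -0.76 ± 0.17 (adjusted p = 0.00228) and RRM2B at -0.79 ± 0.22 (adjusted p = 0.00923). On the deposited scale MDM2 and ZMAT3 thus differed between the agents in both lines, MDM2 being lower and ZMAT3 higher after the siRNA. With spike-in scaling, of these 7 calls those of MDM2 alone held. ZMAT3 was then at -0.54 in IGR37 (adjusted p = 0.198) and at 0.23, the opposite sign, in 501mel (adjusted p = 0.533). PPM1D in IGR37 was at -0.41 (adjusted p = 0.438), and in 501mel SESN1 was at -0.36 (adjusted p = 0.488) and RRM2B at 0.19 (adjusted p = 0.645). GADD45A in 501mel missed the threshold at -0.96 ± 0.37 (adjusted p = 0.0653) and passed without 501mel SCDi replicate 3, siCTR replicate 1 or siSCD_2 replicate 1 (adjusted p of 0.0477, 0.0321 and 0.0139), with the replicate block (0.0483) and with a pseudocount of 1 CPM (0.0447). In IGR37 its difference was 0.23 ± 0.37 (adjusted p = 0.65, 95% interval -0.52 to 0.99).

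The control libraries showed how the lines differed before treatment. CDKN1A had 201 reads in IGR37 against 4 in 501mel under DMSO, a CPM ratio of 50.6 (95% counting interval 19.4 to 187). Under siCTR it had 77 against 3 (ratio 21.9, 7.21 to 108), and under siCTR_1 192 against 3 (52.4, 17.7 to 256). Of the 8 genes 6 passed under DMSO (60.8% of all genes did), 6 under siCTR (62.6%) and 5 under siCTR_1 (60.4%). MDM2 was lower in IGR37, with differences (IGR37 minus 501mel) of -0.90, -1.10 and -0.86 in that order of controls. SESN1 was lower as well, at -0.95, -0.56 and -1.03. RRM2B was higher in IGR37, by 0.77, 0.69 and 0.69, and PPM1D by 0.38, 0.60 and 0.62. All 12 of these differences passed, with adjusted p from 2.47e-09 to 0.0379, but 4 of them lost their calls under some alternatives. SESN1 under siCTR lost its call without single libraries (adjusted p up to 0.208), in a fit of only the groups compared (0.0859) and with spike-in scaling (0.0869). PPM1D under DMSO lost its call without single libraries (up to 0.128), with quantile normalisation (0.0637), median centring (0.0697), the replicate block (0.104) and spike-in scaling (0.211). With spike-in scaling PPM1D under siCTR was at adjusted p = 0.094, and with the replicate block RRM2B under siCTR_1 was at 0.0585. ZMAT3 was higher in IGR37 under DMSO only (0.51 ± 0.12, adjusted p = 0.000879), and GADD45A lower under siCTR only (-1.31 ± 0.26, adjusted p = 0.000105); whether these differ between the controls was not tested. BTG2 passed under no control as deposited, and with quantile normalisation it did under siCTR (adjusted p = 0.0253) and siCTR_1 (0.0174), as it did under siCTR_1 without 501mel siCTR_1 replicate 3 (0.0113).

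CDKN1A was lower with siCTR than with DMSO in IGR37, a comparison added after its levels were seen. It was at 1.26, 2.34 and 2.29 log2 CPM with siCTR, against 3.62, 3.49 and 3.84 with DMSO, a change of -1.69 ± 0.40 (adjusted p = 0.00439). MDM2 and ZMAT3 were also lower with siCTR, at -0.35 ± 0.11 (adjusted p = 0.0266) and -0.42 ± 0.12 (adjusted p = 0.0214), so that 3 of 8 passed where 15.5% of all genes did. In a fit of only these 2 groups the last pair did not pass (adjusted p of 0.0524 and 0.0731), nor with spike-in scaling (0.275 and 0.204). The MDM2 call was also lost without DMSO replicate 2 or 3 or siCTR replicate 2 (adjusted p up to 0.146). That of ZMAT3 was lost without DMSO replicate 1 or 2 or siCTR replicate 1 (adjusted p up to 0.157). In 501mel 0 of 8 passed, with limma on the deposited values or with voom, and 1, ZMAT3, had an unadjusted p under 0.05 (11.3% of all genes passed). CDKN1A with siSCD_2 in IGR37 averaged 4.03 ± 0.26 log2 CPM and with DMSO 3.65 ± 0.18 (SD, n = 3 each), a difference that was not tested.

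Other genes of the pathway were taken from lists chosen with earlier results known. Some genes are on 2 of the lists, SESN2, MDM4 and RRM2 among them, so the counts of the lists are not separate observations. Over all genes 20.9% rose and 23.1% fell in IGR37 with SCDi, 23.2% and 22.7% with siSCD_2, and 16.7% and 19.4% with siSCD_1. In 501mel 0.232% and 0.0599% did with SCDi, 18.3% and 19.5% with siSCD_2, and 20.9% and 22% with siSCD_1, and the counts of each list are read against these shares. Of 20 measured further p53 targets of arrest, repair and feedback, 5 rose and 5 fell in IGR37 with SCDi, 7 and 5 with siSCD_2, and 3 and 5 with siSCD_1. In 501mel 2 rose and 0 fell with SCDi, 4 and 6 with siSCD_2, and 7 and 3 with siSCD_1. The shares that rose were 25%, 35% and 15% in IGR37 and 10%, 20% and 35% in 501mel, and those that fell were 25%, 25% and 25% in IGR37 and 0%, 30% and 15% in 501mel, in that order of agents, on either side of the shares of all genes. The list's median change lay between -0.10 and 0.35. SESN2, a sestrin that is also an ATF4 target, rose in all 6 comparisons, from 1.44 with SCDi in 501mel to 3.95 with siSCD_1 in IGR37. GDF15, a stress-secreted cytokine, rose in 5, by 1.09, 1.00 and 1.73 with SCDi, siSCD_2 and siSCD_1 in IGR37 and by 0.69 with SCDi and 1.87 with siSCD_1 in 501mel. With siSCD_2 in 501mel it fell by 0.94. TIGAR, a regulator of glycolysis, fell in all 3 IGR37 comparisons (by 0.88 with SCDi) and with siSCD_2 in 501mel, and rose by 0.50 with siSCD_1 there. PHLDA3, an inhibitor of AKT, rose by 0.69 with siSCD_2 in IGR37 and fell by 0.98 with siSCD_2 in 501mel.

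Of the cell death targets of p53, 11 were measured. In IGR37 3 rose and 2 fell with SCDi, 3 and 4 with siSCD_2, and 4 and 2 with siSCD_1, and in 501mel 0 and 0, 2 and 4, and 5 and 2. Those that rose made up 27.3%, 27.3% and 36.4% in IGR37 and 0%, 18.2% and 45.5% in 501mel, and those that fell 18.2%, 36.4% and 18.2% in IGR37 and 0%, 36.4% and 18.2% in 501mel, again on either side of the shares of all genes, with few genes behind each. BBC3, which encodes the BH3-only protein PUMA, rose by 3.08 with SCDi and by 2.28 with siSCD_1 in IGR37, and by 1.27 with siSCD_2 and 1.88 with siSCD_1 in 501mel. With siSCD_2 in IGR37, where CDKN1A and 5 other members rose, it was at -0.13 (adjusted p = 0.546). TNFRSF10B, a TRAIL receptor, rose in all 3 IGR37 comparisons, by 1.66 with SCDi, and by 0.33 with siSCD_1 in 501mel. The nuclease gene AEN rose by 0.49 with siSCD_2 in IGR37 and fell by 0.28 to 0.82 in 4 of the others. PERP, a membrane protein of desmosomes, fell with siSCD_2, by 0.34 in IGR37 and 1.27 in 501mel, and rose by 0.62 with siSCD_1 in IGR37.

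**Figure D3:**
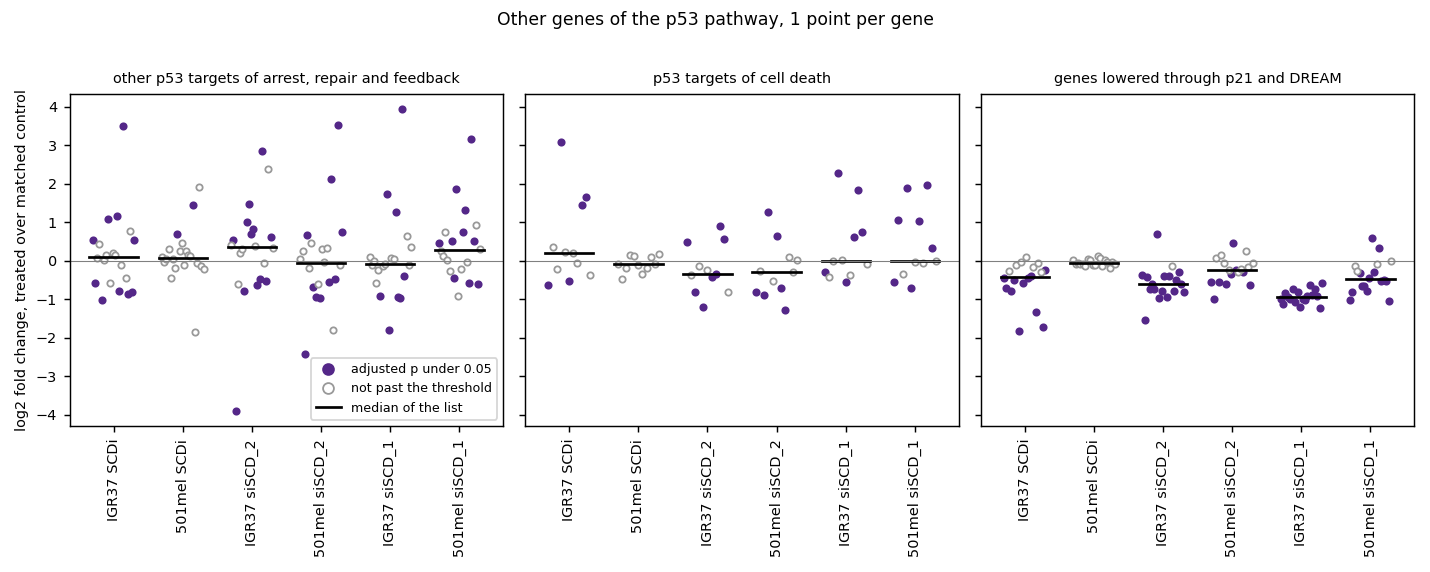
Log2 fold change (y axis) of each measured gene of 3 lists in the 6 comparisons of treated over matched control libraries, filled where the adjusted p was under 0.05, with a bar at the list's median. The points of the 2 lists of p53 targets lie on both sides of 0, and those of the p21 and DREAM list lie mostly below 0, with medians down to -0.93 with siSCD_1 in IGR37.

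Genes that p21 lowers through the DREAM repressor complex, mostly genes of replication and mitosis, fell far more often than they rose. Of 18 measured, 11 fell with SCDi in IGR37, 16 with siSCD_2 and 18 with siSCD_1, and 0, 1 and 0 rose; of all genes 23.1%, 22.7% and 19.4% fell. In 501mel 0 fell with SCDi, 8 with siSCD_2 and 12 with siSCD_1, and 0, 1 and 2 rose, where 0.0599%, 19.5% and 22% of all genes fell. The medians were -0.42, -0.61 and -0.93 in IGR37, and -0.07, -0.24 and -0.48 in 501mel. In 501mel CDKN1A had at most 4 reads per group, and the part of CDKN1A in these falls was not tested in either line. BIRC5, the inhibitor of apoptosis survivin, fell in 5 comparisons, by 1.54 with siSCD_2 in IGR37 and by 0.99 in 501mel, and was at -0.09 with SCDi in 501mel (adjusted p = 0.793). CDC25A, a phosphatase that activates cyclin-dependent kinases, fell by 1.84 with SCDi and by 1.09 with siSCD_1 in IGR37 but rose by 0.71 with siSCD_2 there, and in 501mel it fell by 0.61 with siSCD_2 and by 0.65 with siSCD_1. TOP2A, the topoisomerase of dividing cells, fell in all 3 IGR37 comparisons, by 0.81 with siSCD_2, and its values in 501mel did not pass. In these bulk libraries fewer cells of a state and less RNA per cell cannot be told apart.

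Of 16 measured regulators of p53, 7 rose and 3 fell in IGR37 with SCDi, 6 and 4 with siSCD_2, and 6 and 3 with siSCD_1. In 501mel the counts were 0 and 0, 5 and 3, and 5 and 4. The shares that rose, 43.8%, 37.5% and 37.5% in IGR37 and 0%, 31.2% and 31.2% in 501mel, were above those of all genes except with SCDi in 501mel. The shares that fell, 18.8%, 25% and 18.8% in IGR37 and 0%, 18.8% and 25% in 501mel, were close to them. MDM4, the partner of MDM2 that masks p53, rose by 1.57 with SCDi and by 0.73 with siSCD_1 in IGR37, and by 0.26 and 0.80 with siSCD_2 and siSCD_1 in 501mel. With siSCD_2 in IGR37, where MDM2 fell, MDM4 was at -0.10 (adjusted p = 0.342). HIPK2, a kinase that phosphorylates p53, fell by 2.00 with siSCD_2 in IGR37 and by 1.67 in 501mel, where it also fell by 0.34 with siSCD_1, and rose by 0.56 with SCDi in IGR37 (adjusted p = 0.00702). Another p53 kinase, DYRK2, rose with siSCD_2 in both lines, by 2.06 in IGR37 and 0.64 in 501mel, and by 0.51 with siSCD_1 in IGR37, where it fell by 0.86 with SCDi (adjusted p = 0.000113). RPL5, a ribosomal protein that can bind MDM2, rose with siSCD_2 in both lines (0.62 in IGR37 and 0.47 in 501mel) and with SCDi in IGR37 (0.34), and fell with siSCD_1 in both (-0.27 and -0.77). Of 17 measured relatives 8 rose and 5 fell in IGR37 with SCDi, 7 and 3 with siSCD_2, and 9 and 6 with siSCD_1, and in 501mel 1 and 0, 7 and 4, and 7 and 3. As shares 47.1%, 41.2% and 52.9% rose in IGR37 and 5.88%, 41.2% and 41.2% in 501mel, above the shares of all genes. Those that fell were 29.4%, 17.6% and 35.3% in IGR37 and 0%, 23.5% and 17.6% in 501mel, on either side of them. CDKN2B, the p15 kinase inhibitor, rose by 3.42 with siSCD_2 and by 1.54 with siSCD_1 in IGR37, and by 0.83 with siSCD_1 in 501mel. RRM2, the S phase counterpart of RRM2B, fell in 5 comparisons, by 1.72 with SCDi in IGR37, in which RRM2B rose.

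Among 5734 genes of at least median level in both tables, those whose 6 changes lay nearest to a member's were named by the root mean square (RMS) difference over the 6 comparisons. Nearest to MDM2 were DCAF12 (RMS difference 0.101), CBLL1 (0.150) and TMEM9 (0.152), with DCAF12 at -0.91 with siSCD_2 in IGR37 and -1.04 in 501mel. RRM2B had DLG1 (0.0830), MYO10 (0.138) and ZBTB11 (0.144), and ZMAT3 had MARCKS (0.106), C15orf57 (0.112) and FIS1 (0.115). The changes of GADD45A and BTG2 had no such near match: the closest were ARHGEF2 (0.567), MALAT1 (0.707) and CITED1 (0.720) for GADD45A, and ZNF367 (0.550), LYST (0.563) and TNRC6C (0.602) for BTG2. The difference is in log2 units, so it can be larger for genes with large or noisy changes. Genes below median level were not candidates, and BTG2 had 23 to 138 reads per group. None is named for CDKN1A, whose fits in 501mel rest on 0 to 4 reads, nor for PPM1D and SESN1, which passed in fewer than 3 comparisons. The comparisons in 1 line and table share a fit, so likeness over 6 comparisons is a description.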

How the data were processed

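The 36 libraries were made with QuantSeq Forward, which counts tags at the 3' end of transcripts, from total RNA of 501mel and IGR37 cells, per the labels' protocols. Reads were aligned with STAR to hg38 and handled with edgeR, per the submitters' processing notes; versions, strand settings and filters are not given in the sources used here. The authors deposited log2 values, scaled to library size, in 2 separately normalised tables: 13364 genes in 24 libraries (DMSO, SCDi, siCTR, siSCD_2) and 13066 genes in 12 libraries (siCTR_1, siSCD_1). The values behave as log2 CPM with a prior count of 0.25, since 100% of them gave whole reads within 0.05 reads; these recovered reads give the depths and read counts quoted. Tags mark the 3' end, so splice forms and transcript starts cannot be told apart, and the recovered reads carry no molecular identifiers in these files, so intervals from reads cover counting error only.

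Tests were run with limma 3.58.1 (R 4.3.3) on the deposited log2 values: 1 coefficient per group, all libraries of a table sharing the spread, a variance trend, two-sided p, Benjamini-Hochberg adjustment over all genes of the table, no further filter on low values. The steps were tested on simulated data. Replicate numbers were not used as pairs, since 5 of 17 pairs had a correlation of residuals above 0.1. In IGR37 siSCD_2 the third column bears number 3 and no label does, so it is used as a library of that group without a number. No deposited sample column was left unused. Spike-in rows and 1 row of a tagged Mitf construct were kept out of gene tests.

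The 8 genes and all lists were chosen with earlier results of these data known. All 8 are named with their values. From each further list at most 4 genes are named, those with the smallest adjusted p in any treated against control comparison. For each of the 8 past the threshold in at least 3 of the 6 comparisons, the 3 nearest genes by root mean square difference of change are named, except for CDKN1A, which rests on too few reads in 501mel. Alternatives were a fit restricted to the compared groups, a prior without trend, filters on low values, a pseudocount of 1 CPM, quantile normalisation, median centring, spike-in scaling, a replicate block, leaving out each library, and limma's voom on the recovered reads, the last added after the files were seen. The planned count tests of edgeR and DESeq2 were not run, because the deposited unit is log2. Gene positions are those of GENCODE 29 on hg38, and promoters are from RefSeq on GRCh38.p14.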

Additional observations from a re-analysis of the deposited data

Results flagged for a closer look

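Changes of 4 of the 8 genes differed between the lines by a test of the difference itself (limma, IGR37 minus 501mel, adjusted over all genes of the table, 3 libraries per group). Members passing were 4 with SCDi (27.6% of all genes passed), 1 with siSCD_2 (21.1%) and 1 with siSCD_1 (20.3%). With SCDi the difference was 1.87 ± 0.37 for GADD45A (adjusted p = 0.000397), 0.69 ± 0.22 for RRM2B (adjusted p = 0.0175) and -0.48 ± 0.17 for ZMAT3 (adjusted p = 0.0388). The RRM2B and ZMAT3 calls were both lost without 501mel DMSO replicate 1 or 3, and each without further single libraries. RRM2B was at 0.23 with spike-in scaling (adjusted p = 0.683), and ZMAT3 did not pass with the replicate block (adjusted p = 0.0502). With siSCD_1 GADD45A had the opposite sign, at -1.36 ± 0.30 (adjusted p = 0.00564). In both cases its 3 treated libraries stood above all 3 controls in either line. CDKN1A gave 4.04 ± 0.56 with SCDi (adjusted p = 6.44e-06) and 4.44 ± 0.56 with siSCD_2 (adjusted p = 3.09e-06), where the 501mel side rests on 0 reads with SCDi against 4 with DMSO and on 0 reads with siSCD_2 against 3 with siCTR, so that neither value is a measured size.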

How the results depend on the processing

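Of the 480 values that the 10 alternatives other than leaving out a library gave for the 8 genes in the 6 treated against control comparisons, 451 kept their direction and side of the threshold, 22 lost a call, 4 gained one and 3 reversed. Among these 10, the filter at a log2 value above 0 in 3 libraries removed no gene. Its values repeat the main fit, so they could only count as kept. Of 288 values with 1 library left out, 267 kept both, 19 lost a call, 2 gained one and 0 reversed. Scaling to the spike-ins moved most: genes passing went to 1 with SCDi in IGR37 (4 as deposited), to 3 with siSCD_2 in IGR37 and in 501mel (7 in both as deposited), and to 2 with siSCD_1 in IGR37 (4 as deposited). For the difference between SCDi and siSCD_2 effects it left 1 in IGR37 and 1 in 501mel (3 and 4 as deposited). It reversed RRM2B with siSCD_2 in 501mel (-0.0746), PPM1D (-0.0389) and ZMAT3 (-0.0045) with siSCD_2 in IGR37, and the difference between agents in 501mel for RRM2B (0.19) and ZMAT3 (0.23). Since the spike-in mix differed between treated and control libraries, these losses and reversals cannot be read as a trait of the genes alone. The only call with SCDi in 501mel, CDKN1A on 4 reads, went to 0 with a pseudocount of 1 CPM, with voom and in a fit of only the groups compared. The pseudocount raised the siSCD_1 difference between lines to 3 genes (1 as deposited). The cause was not tested. Leaving out each library gave 3 to 4 genes with SCDi in IGR37 and 1 in 501mel, 6 to 7 with siSCD_2 in either line, 2 to 5 with siSCD_1 in IGR37 (2 without siSCD_1 replicate 3) and 3 to 5 in 501mel. For the differences between lines it gave 2 to 4 genes with SCDi (2 without 501mel DMSO replicate 1 or 3), 1 with siSCD_2 and 1 to 3 with siSCD_1 (3 without 501mel siCTR_1 replicate 1, 2 without IGR37 siSCD_1 replicate 3). It gave 3 for the difference between agents in IGR37 and 4 to 5 in 501mel, and 5 to 6 for the lines under each control.

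With the replicate block the counts were 4 and 1 with SCDi in IGR37 and 501mel, 6 and 7 with siSCD_2, and 4 and 4 with siSCD_1. For the differences between lines the block gave 3 with SCDi, 1 with siSCD_2 and 1 with siSCD_1, for the agents 3 in IGR37 and 5 in 501mel, and for the lines 5 under DMSO, 6 under siCTR and 4 under siCTR_1. The unnumbered IGR37 siSCD_2 library has its own level there and so adds nothing to that fit. With the block, BTG2 with siSCD_2 in IGR37 was 0.92 (adjusted p = 0.105) and ZMAT3 in the SCDi difference between lines -0.48 (adjusted p = 0.0502). The numbers are not known to mark shared cultures: 5 of 17 same-numbered pairs had a residual correlation above 0.1 (range -0.192 to 0.252), and 7 of 17 treated libraries correlated best with their own number. Requiring 3 libraries above a log2 value of 0 left out 0 genes. The edgeR and DESeq2 alternatives were not run. Voom called 6390 of all genes with SCDi in IGR37 (5890 as deposited) and 27 in 501mel (39), 6696 and 5214 with siSCD_2 (6136 and 5059), and 5363 and 5855 with siSCD_1 (4715 and 5614). Reads limit CDKN1A in 501mel and, at 23 to 138 per group, BTG2.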
